A study of Mus musculus with 24 samples.

Results

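The response of the C57 mouse cortex to conduritol B-epoxide (CBE) was read from 6 of the 24 arrays of a study of 4 inbred strains, chosen by their labels: 3 C57 mice given CBE and 3 C57 mice given phosphate-buffered saline (PBS). CBE blocks glucocerebrosidase, the lysosomal enzyme that is deficient in Gaucher disease, and is given to young mice as a chemical model of the form of the disease that damages the brain. Both groups were male mice of the strain C57BL/6JOlaHsd, 18 days old, with no allele or agent named beyond the strain and the injection. CBE was given by intraperitoneal injection at 25 mg per kg per day from day 8 to day 18, and PBS over the same days. The tissue was the 1 mm coronal brain slice that holds the cortex, with 1 array per mouse; litters are not named. Replicate numbers come from the sample titles. The p-values below measure only the spread between animals of the same group, pooled over the 8 groups of all 24 arrays. The remaining 18 arrays, from SV129, FVB and C3H mice, served only to estimate the spread. Values are deposited log2 signals for 22180 genes, changes are log2 CBE minus PBS ± the standard error (SE) of the fit (n = 3 and 3), and a gene is said to have risen or fallen where limma's moderated test gave a Benjamini-Hochberg adjusted p under 0.05.

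Interferons are secreted proteins that warn cells of infection or damage. Type I interferons bind a paired receptor whose kinases activate Stat transcription factors, among them Stat2, which join Irf9 and bind a DNA element, the interferon-stimulated response element (ISRE), in the promoters of target genes. Interferon gamma acts mainly through another Stat complex and another element, the gamma-activated site (GAS). In the brain, microglia, the resident macrophages, take up debris and storage material, and with astrocytes they carry much of the innate immune response. Loss of glucocerebrosidase activity leaves glucosylceramide in lysosomes, and neuroinflammation is a known feature of the neuronopathic disease.

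Interferon-stimulated genes were the largest group among the rises in the CBE-treated C57 cortex, with 25 of 70 on the list of interferon-stimulated effectors. Chemokines, genes that load peptides on MHC class I, and single myeloid and astrocyte genes rose as well. All MHC class I calls were lost without C57 PBS 2, CBE 2 or CBE 3. The myeloid and astrocyte counts depended on C3H CBE 1, an array that enters only the spread. Without it 8 Fc and myeloid receptor genes passed, against 2 with all arrays, and 5 reactive astrocyte genes, against 3. For complement and disease-associated microglia the counts without it were 6 each, against 0 with all arrays. No listed gene of neurons, myelin or lysosomal hydrolysis passed the test with all 24 arrays. Of 22180 genes, 72 (0.325%) changed: 70 rose (0.316%) and 2 fell (0.00902%). The 70 rises ran from 0.41 to 3.12 with a median of 1.15; 45 were of at least 2-fold and 9 of at least 4-fold. Both falls were under 1.5-fold. On all 70 the 3 CBE arrays lay above the 3 PBS arrays, an order that 5.82% of all genes showed, and on both falls they lay below, as for 7.22% of all genes. The median change of all genes was -0.01, and 1281 genes (5.78%) had an unadjusted p under 0.05.

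**Figure D1:**
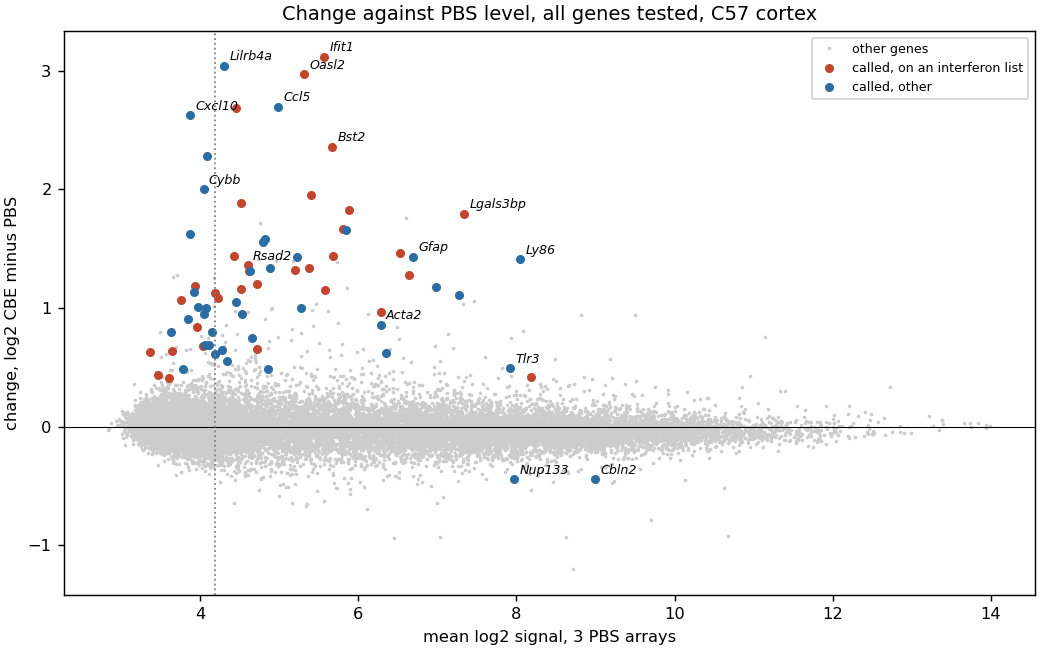
Each point is 1 of 22180 genes, with its mean log2 signal on the 3 PBS arrays on the x axis and its log2 change, CBE minus PBS, on the y axis; filled colours mark the 72 genes with adjusted p under 0.05 and the dotted line the median of all values (4.18). The 70 rises reach 3.12, the 2 falls stop at -0.44, and 22 of the 70 rises start from a PBS mean below the dotted line.

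Of the 70 risen genes, 22 had a PBS mean under 4.18, the median of all values, where array signal is dim and a fold change is understated. The 6 arrays were alike in scale, with medians from 4.19 to 4.21 and correlations of 0.991 to 0.992 within a group. Of 685 entries in 46 gene lists, 619 were measured, 5 of them through an older or newer symbol. The lists held 52 of the 70 risen genes, and 12 of the 46 lists had a risen member. Each list's count of rises stands against 0.316% of all genes, and its median change against -0.01. In a tissue slice, more cells of a type and more RNA per cell cannot be told apart.

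Promoter sequences of risen genes are shown first, because many held letters that match the core of the ISRE. RefSeq promoter windows of GRCm38.p6, each from 250 bases before to 50 bases after a gene's start, were searched on both strands for the ISRE core (GAAA, any 2 bases, GAAA) and for GAS (TTC, any 3 bases, GAA); matches may overlap. A window was found for 55 of the 70 risen genes. The ISRE core stood in 23 of the 55 (41.8%), against 3.87% of the 16990 tested genes with a window. GAS stood in 11 of the 55, against 9.15% of the tested genes. Among the lists, the core stood in 6 of 6 interferon-induced GTPases with a window and in 14 of 29 interferon-stimulated effectors. It stood in 1 of 11 chemokines, 1 of 9 homeostatic microglia genes, 0 of 17 disease-associated microglia genes and 0 of 10 neuronal genes. GAS stood in 4 of the 6 GTPases and in 6 of the 29 effectors. The 250 bases before the start are given below, in the gene's own direction, for the 5 risen genes of smallest p with a window and for the neighbouring GTPase genes Irgm2 and Igtp, with ISRE cores and GAS matches in capitals.
Rsad2: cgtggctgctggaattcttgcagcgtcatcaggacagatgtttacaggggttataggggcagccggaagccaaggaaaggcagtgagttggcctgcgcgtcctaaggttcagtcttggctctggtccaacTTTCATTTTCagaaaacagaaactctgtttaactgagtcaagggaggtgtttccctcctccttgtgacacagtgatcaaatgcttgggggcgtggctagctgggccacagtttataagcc
Cxcl10: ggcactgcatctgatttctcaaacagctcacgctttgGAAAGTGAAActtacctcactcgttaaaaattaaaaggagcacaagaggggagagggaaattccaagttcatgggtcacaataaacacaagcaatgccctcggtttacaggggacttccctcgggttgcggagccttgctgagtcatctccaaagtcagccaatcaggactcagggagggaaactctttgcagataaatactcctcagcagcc
Rnf213: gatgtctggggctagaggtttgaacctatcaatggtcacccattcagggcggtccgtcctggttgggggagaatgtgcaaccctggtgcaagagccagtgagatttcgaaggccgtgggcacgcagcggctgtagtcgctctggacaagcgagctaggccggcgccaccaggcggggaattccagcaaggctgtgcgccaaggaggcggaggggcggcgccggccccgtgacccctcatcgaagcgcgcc
Ifit1: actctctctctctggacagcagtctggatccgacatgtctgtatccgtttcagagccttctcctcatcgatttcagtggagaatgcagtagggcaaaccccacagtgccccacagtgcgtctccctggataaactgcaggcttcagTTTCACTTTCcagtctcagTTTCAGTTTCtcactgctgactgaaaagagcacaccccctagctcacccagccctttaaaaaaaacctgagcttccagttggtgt
Isg15: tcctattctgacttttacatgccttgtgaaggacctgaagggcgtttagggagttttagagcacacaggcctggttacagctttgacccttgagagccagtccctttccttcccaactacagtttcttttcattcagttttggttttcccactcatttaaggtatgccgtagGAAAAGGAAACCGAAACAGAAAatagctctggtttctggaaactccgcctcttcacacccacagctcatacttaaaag
Irgm2: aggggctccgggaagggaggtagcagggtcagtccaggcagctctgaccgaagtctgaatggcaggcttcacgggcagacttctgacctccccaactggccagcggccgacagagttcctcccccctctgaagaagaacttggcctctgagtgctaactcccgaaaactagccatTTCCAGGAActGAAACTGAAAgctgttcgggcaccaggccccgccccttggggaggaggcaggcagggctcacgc
Igtp: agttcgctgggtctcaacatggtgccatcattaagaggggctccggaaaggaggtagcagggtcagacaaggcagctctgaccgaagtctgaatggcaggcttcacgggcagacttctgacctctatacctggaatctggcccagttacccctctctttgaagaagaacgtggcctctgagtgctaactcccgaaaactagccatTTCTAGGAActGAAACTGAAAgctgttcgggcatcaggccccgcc
These stretches lie at chr12:26456453-26456702 (minus strand) for Rsad2, chr5:92348890-92349139 (minus) for Cxcl10, chr11:119389849-119390098 (plus) for Rnf213, chr19:34640639-34640888 (plus) for Ifit1, chr4:156200819-156201068 (minus) for Isg15, chr11:58214727-58214976 (plus) for Irgm2 and chr11:58199306-58199555 (plus) for Igtp. With positions counted from the start site, negative before it, Ifit1 holds a pair of cores at -104 to -95 and -85 to -76, and Isg15 holds 3 that overlap from -78 to -57. Rsad2 holds 1 core at -120 to -111, and Cxcl10 1 at -213 to -204. Irgm2 and Igtp each hold a GAS match followed, after a gap of 2 bases, by an ISRE core. Rnf213 holds neither motif in this window. A match is a description of the letters and not a measured binding site.

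Interferon-stimulated effectors are the proteins that carry out the antiviral state, and their list held the largest rise of the comparison. Of 38 measured members 25 rose (65.8%, against 0.316% of all genes), none fell, and all 38 had a positive change; the median change was 0.82, against -0.01 over all genes. The count was 12 without CBE 3, 15 without PBS 1, 16 without PBS 2, 30 without C3H CBE 1 and 23 with only the 6 C57 arrays. Ifit1 (probe set 17358832), which binds viral RNA that lacks the host cap mark, read 5.44, 5.31 and 5.97 on the PBS arrays and 8.36, 8.60 and 9.10 on the CBE arrays. It rose by 3.12 ± 0.30, or 8.67-fold (adjusted p = 5.49e-06). Oasl2 (17441037), an oligoadenylate synthetase-like antiviral protein, read 5.17, 5.16 and 5.62 against 7.76, 8.45 and 8.65, a rise of 2.97 ± 0.33 (adjusted p = 3.79e-05). The lowest CBE array stood above the highest PBS array by 2.39 log2 units for Ifit1 and 2.14 for Oasl2.

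The ubiquitin-like protein Isg15 is attached to proteins in cells under interferon, and Usp18 removes it and also restrains the receptor. Isg15 (17434023) read 5.84, 5.89 and 5.92 on the PBS arrays and 7.49, 7.83 and 7.82 on the CBE arrays, a rise of 1.83 ± 0.19 (adjusted p = 1.29e-05). Usp18 (17462437) read 4.43, 4.30 and 4.64 against 6.72, 7.12 and 7.58, a rise of 2.68 ± 0.30 (adjusted p = 3.78e-05). Trim25, a ligase that attaches Isg15 or ubiquitin, read 4.59, 4.63 and 4.93 against 5.41, 5.51 and 5.19, a rise of 0.66 ± 0.12 (adjusted p = 0.00969), and its call was lost without PBS 1, PBS 2 or CBE 2 (adjusted p up to 0.101). The groups were apart by 1.57 for Isg15, 2.08 for Usp18 and 0.26 for Trim25.

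Rsad2 (17280327; viperin, which makes a chain-terminating nucleotide) had the smallest p of all genes. It read 4.55, 4.51 and 4.74 on the PBS arrays and 5.77, 5.97 and 6.15 on the CBE arrays, a rise of 1.36 ± 0.10 (adjusted p = 9.61e-08). Cmpk2, the nucleotide kinase encoded beside it, rose by 0.42 ± 0.09 (adjusted p = 0.0432), and its call was lost without any 1 of the 6 C57 arrays. Bst2 (17510345; tetherin, which holds budding viruses at the cell surface) read 5.41, 5.56 and 6.05 against 7.63, 8.58 and 7.88, a rise of 2.36 ± 0.32 (adjusted p = 0.000325). Rnf213 (17259078), a large ubiquitin ligase, read 5.13, 5.56 and 5.52 against 6.95, 7.49 and 7.62, a rise of 1.95 ± 0.18 (adjusted p = 2.72e-06). For Bst2, CBE 2 stood well above the other CBE arrays, and the groups were still apart by 1.59.

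Further members of the list rose from a range of starting levels. Lgals3bp (17272785), a secreted glycoprotein, was the brightest of the larger rises: it read 7.15, 7.08 and 7.77 on the PBS arrays and 8.90, 9.21 and 9.27 on the CBE arrays, a rise of 1.79 ± 0.29. Rtp4 (17324446), an interferon-induced chaperone, read 5.67, 5.54 and 6.21 against 7.20, 7.42 and 7.81, a rise of 1.67 ± 0.22. Parp14 (17330099), an ADP-ribosyltransferase, read 4.37, 4.33 and 4.57 against 5.47, 5.93 and 6.19, a rise of 1.44 ± 0.18. Ifitm3 (17497718), which blocks virus entry at endosomes, read 6.34, 6.30 and 6.95 against 7.86, 7.98 and 8.15, a rise of 1.47 ± 0.30 (adjusted p = 0.0294), lost without any 1 C57 array but PBS 3 (adjusted p up to 0.194). In Lgals3bp, Rtp4 and Ifitm3 PBS 3 was well above the other PBS arrays and below every CBE array.

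Among the oligoadenylate synthetases, whose product switches on RNA decay, and their relatives, Oas1g rose by 1.07 ± 0.13 (adjusted p = 9.61e-05), Oasl1 by 0.63 ± 0.10 and Oas1b by 0.41 ± 0.09. Oas2 read 3.85, 3.69 and 3.92 against 4.07, 4.57 and 4.77 (0.65 ± 0.15, adjusted p = 0.068), and Oas3 changed by 0.32 ± 0.07 (adjusted p = 0.079), so neither passed. Without C3H CBE 1 the adjusted p of Oas2 was 0.0177, and Oas3 still did not pass. Of the Mx proteins, which trap viral nucleocapsids, Mx2 rose by 0.64 ± 0.13 (adjusted p = 0.0219) and Mx1 changed by 0.53 ± 0.13 (adjusted p = 0.091). Eif2ak2, the kinase that halts translation on double-stranded RNA, read 5.63, 5.51 and 5.58 against 6.47, 6.61 and 7.10, a rise of 1.15 ± 0.20 (adjusted p = 0.00599). Ifit2 rose by 0.84 ± 0.15, Isg20, an exonuclease, by 1.16 ± 0.19, and Sp100, a nuclear body protein, by 1.20 ± 0.22. The calls of Oasl1, Eif2ak2 and Isg20 were lost without CBE 3 (adjusted p up to 0.0819), and those of Oas1b, Mx2, Ifit2 and Sp100 without CBE 3 or at least 1 other C57 array (up to 0.324). Ifit3 and Ifit3b had changes of 0.10 ± 0.17 and 0.10 ± 0.21, with overlapping arrays. Probe sets of the Oas, Ifit and Ifi200 families can read near-identical relatives, so the identity of a single member is uncertain.

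**Figure D2:**
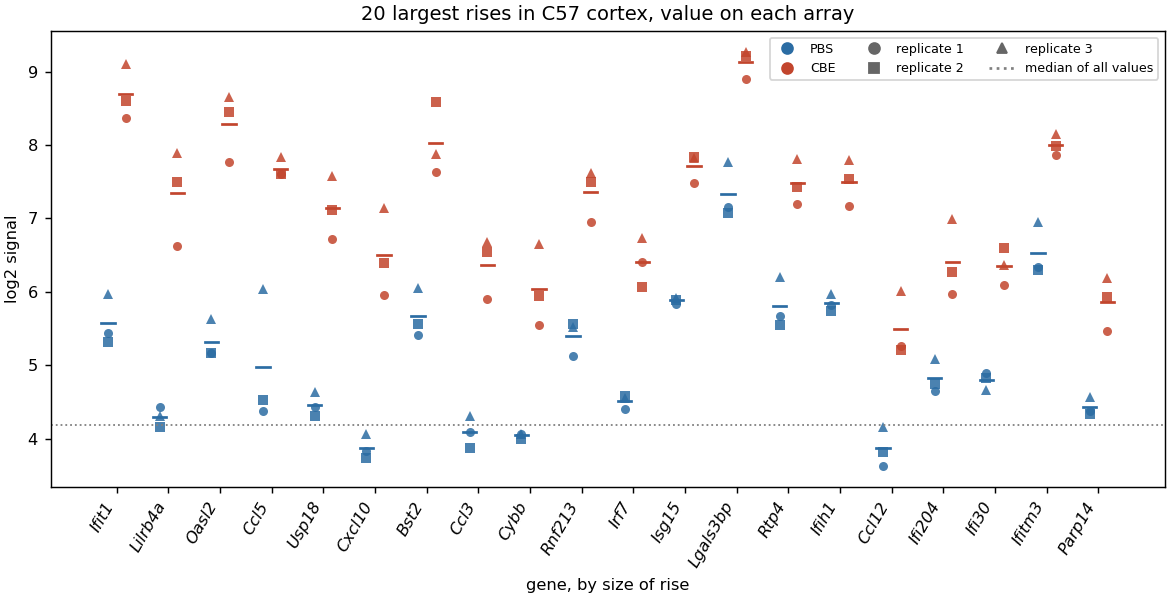
Log2 signal (y axis) of the 20 largest rises (x axis) on each of the 3 PBS and 3 CBE arrays, with symbols for the replicate numbers, a bar at each group mean and a dotted line at the median of all values (4.18). In all 20 genes the CBE points lie above the PBS points; the triangle, replicate 3, is often the highest of its group, as for Ccl5, where PBS 3 reads 6.04 against 4.38 and 4.52.

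The interferon-induced GTPases are enzymes that take part in the defence against pathogens held in vacuoles. Of 10 measured members 5 rose (50%, against 0.316% of all genes), none fell, and the median change was 1.18. Without PBS 1, PBS 2 or CBE 3, 2 of the 10 passed. Igtp (17249980) read 5.45, 5.35 and 6.25 on the PBS arrays and 6.69, 7.26 and 7.41 on the CBE arrays, a rise of 1.44 ± 0.23 (adjusted p = 0.00265). Its neighbour Irgm2 (17249990), whose promoter stretch is shown above beside that of Igtp, read 4.33, 3.89 and 4.44 against 5.16, 5.19 and 5.57, a rise of 1.09 ± 0.15 (adjusted p = 0.000602). For Igtp the PBS 3 array stood well above the other PBS arrays and below every CBE array. Irgm1 (17262202) read 4.71, 4.57 and 4.56 against 5.37, 5.54 and 6.86, a rise of 1.31 ± 0.28 (adjusted p = 0.0391), with CBE 3 well above the other CBE arrays; without CBE 3, or without any 1 PBS array, the call was lost (adjusted p up to 0.261). The neighbours Gbp3 (17403237) and Gbp7 (17403224) rose by 1.32 ± 0.24 and 1.28 ± 0.23, each lost without PBS 1, PBS 2 or CBE 3 (adjusted p up to 0.118 and 0.13). Iigp1, at 4.81, 4.45 and 5.01 against 5.54, 6.38 and 7.51, had the widest CBE spread of the list. Its change of 1.72 ± 0.39 did not pass (adjusted p = 0.0684). Without C3H CBE 1 the adjusted p of Iigp1 was 0.0124, and 6 of the 10 members passed. Gbp and Irg genes stand in clusters of close relatives, so signal may be shared between them.

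Within the signalling chain, the transcription factor genes Irf7, Irf9 and Stat2 rose, and no measured ligand or receptor gene passed the test. These were 3 of 19 measured members (15.8%, against 0.316% of all genes), and the median change was 0.09. Irf7 (17497813), the factor that amplifies type I interferon production, read 4.40, 4.58 and 4.56 on the PBS arrays and 6.41, 6.06 and 6.73 on the CBE arrays, a rise of 1.89 ± 0.28 (adjusted p = 0.00134). Irf9 (17300591) read 5.15, 5.30 and 5.68 against 6.70, 6.87 and 6.58, a rise of 1.33 ± 0.20 (adjusted p = 0.00168). Stat2 (17238367) read 6.34, 6.17 and 6.33 against 7.22, 7.29 and 7.24, a rise of 0.97 ± 0.13 (adjusted p = 0.000228). Stat2 and Irf9 encode partners in the complex that binds the ISRE, and their groups were apart by 0.88 and 0.90 log2 units.

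Transcripts of the interferons themselves were dim. Ifnb1 read 3.25, 3.32 and 3.37 on the PBS arrays and 3.35, 3.39 and 3.34 on the CBE arrays, below the median of all values throughout, and its change was 0.05 ± 0.08. Ifng read 3.74, 3.68 and 3.66 against 3.80, 3.77 and 3.76 (0.09 ± 0.09), and Ifna4 changed by -0.03 ± 0.20. Signal this low cannot show whether a small number of cells made interferon. The receptor genes were bright, with changes of -0.10 ± 0.07 for Ifnar1, 0.14 ± 0.12 for Ifnar2 and 0.29 ± 0.11 for Ifngr1, none past the test. The kinase genes Jak1 and Jak2 had changes of 0.00 ± 0.06 and 0.00 ± 0.10.

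Among the sensors of nucleic acids and microbial patterns, 4 of 18 measured members rose (22.2%, against 0.316% of all genes). The list's median change was 0.30, and 2 passed without CBE 3 and 6 without C3H CBE 1. Both cytosolic RNA helicases that signal through Mavs were among the 4 rises. Ifih1 (17385797; MDA5) read 5.82, 5.74 and 5.97 on the PBS arrays and 7.18, 7.54 and 7.80 on the CBE arrays, a rise of 1.66 ± 0.21 (adjusted p = 0.000199). Ddx58 (17423987; RIG-I) read 4.63, 4.68 and 4.59 against 5.61, 5.96 and 6.24, a rise of 1.31 ± 0.18 (adjusted p = 0.000338). The groups were apart by 1.20 for Ifih1 and 0.94 for Ddx58. Tlr3 (17509101), the endosomal sensor of double-stranded RNA, started higher and moved less, from 7.81, 7.88 and 8.07 to 8.41, 8.30 and 8.52 (0.49 ± 0.08, adjusted p = 0.00364); without CBE 3 its adjusted p was 0.0523. Sting1 (17353663), the adaptor for cytosolic DNA, rose by 0.49 ± 0.10 (adjusted p = 0.0294), a call lost without any 1 C57 array but PBS 3. The DNA sensor Cgas, at 3.81, 3.81 and 3.85 against 3.78, 3.90 and 3.96, did not pass (0.06 ± 0.06). Among the receptors of microbial products, Tlr2 changed by 0.46 ± 0.13 and Tlr7 by 0.61 ± 0.20, and neither passed (adjusted p = 0.26 and 0.45).

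Chemokines, which draw leukocytes along a gradient, included 3 of the 9 rises of at least 4-fold. Of 17 measured members 5 rose (29.4%, against 0.316% of all genes), and the median change was 0.39. Ccl5 (17266946), which attracts T cells and monocytes, read 4.38, 4.52 and 6.04 on the PBS arrays and 7.60, 7.60 and 7.83 on the CBE arrays, a rise of 2.70 ± 0.29 (adjusted p = 2.01e-05). Cxcl10 (17449718), which interferon induces and which draws activated T cells, read 3.83, 3.73 and 4.06 against 5.95, 6.39 and 7.15, a rise of 2.62 ± 0.22 (adjusted p = 1.06e-06). Ccl3 (17266967), made by activated microglia, read 4.08, 3.88 and 4.30 against 5.90, 6.54 and 6.67, a rise of 2.28 ± 0.45 (adjusted p = 0.0234), and its call was lost without any 1 C57 array but CBE 1 (adjusted p up to 0.179). The groups were apart by 1.56 for Ccl5, 1.90 for Cxcl10 and 1.59 for Ccl3, and Cxcl10 and Ccl3 went from near or below the median of all values to well above it.

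Ccl12 (17254059), a monocyte attractant, read 3.63, 3.81 and 4.16 against 5.26, 5.21 and 6.02, a rise of 1.63 ± 0.19 (adjusted p = 5.24e-05). Cxcl16 (17265268), which exists as a membrane protein and a soluble ligand, rose by 0.95 ± 0.15 (adjusted p = 0.00352). Other interferon-linked chemokines did not pass: Cxcl9 read 3.60, 3.85 and 3.64 against 4.65, 4.09 and 4.38 (0.68 ± 0.36, adjusted p = 0.90) and Cxcl11 changed by 0.39 ± 0.20. The neutrophil attractants Cxcl1 and Cxcl2 stayed dim, with changes of -0.03 ± 0.08 and 0.07 ± 0.09. None of the 16 measured cytokine and inflammasome genes rose, and their median change was 0.10. Il1b read 3.62, 3.63 and 3.60 against 3.59, 3.62 and 3.52, Tnf changed by 0.06 ± 0.10 and Il6 by 0.10 ± 0.08. The list's smallest adjusted p was 0.71, for Casp4, a caspase that senses bacterial lipopolysaccharide, which changed by 0.27 ± 0.11.

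MHC class I molecules show peptides from inside the cell. Of 15 measured genes of this group 4 rose (26.7%, against 0.316% of all genes), with a median change of 0.42. Tap1 (17336432), a subunit of the pump that moves peptides into the endoplasmic reticulum, read 4.54, 4.43 and 4.39 on the PBS arrays and 5.13, 5.33 and 6.05 on the CBE arrays, a rise of 1.05 ± 0.22 (adjusted p = 0.0322). Psmb8 (17336446), an immunoproteasome subunit encoded next to it, read 4.03, 4.06 and 4.10 against 4.77, 4.63 and 4.85, a rise of 0.69 ± 0.14 (adjusted p = 0.0294). Tapbp (17336228), which holds the empty class I molecule at the pump, rose by 0.63 ± 0.12 (adjusted p = 0.0188), and the class I gene H2-Q4 (17337100) by 0.95 ± 0.19 (adjusted p = 0.0227). Each of these 4 calls was lost without 4 to 6 of the C57 arrays taken singly, with adjusted p up to 0.313 for Tap1; the list's count was 0 without PBS 2, CBE 2 or CBE 3 and 6 without C3H CBE 1.

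Other class I genes did not pass the test. H2-K1 read 5.89, 5.79 and 5.88 against 7.15, 7.33 and 6.60, a change of 1.17 ± 0.31 (adjusted p = 0.18). B2m, the shared light chain, read 11.12, 11.12 and 11.20 against 11.98, 11.98 and 11.73, a change of 0.75 ± 0.24 (adjusted p = 0.42). In both the groups did not overlap, and without the array C3H CBE 1, which belongs to another strain and enters only the spread, the adjusted p was 0.0469 for H2-K1 and 0.0036 for B2m. Class I genes are close relatives, and the probe sets of H2-K1 and H2-Q4 may share signal. Of 7 measured class II genes only Ifi30 (17510136), a lysosomal thiol reductase that opens antigens for loading, rose: it read 4.89, 4.83 and 4.67 against 6.09, 6.60 and 6.37 (1.56 ± 0.19, adjusted p = 0.000105). The class II chains H2-Aa, H2-Ab1 and H2-Eb1 changed by 0.24 ± 0.12, 0.14 ± 0.40 and -0.08 ± 0.13, and the class II regulator Ciita by 0.01 ± 0.11, none past the test.

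**Figure D3:**
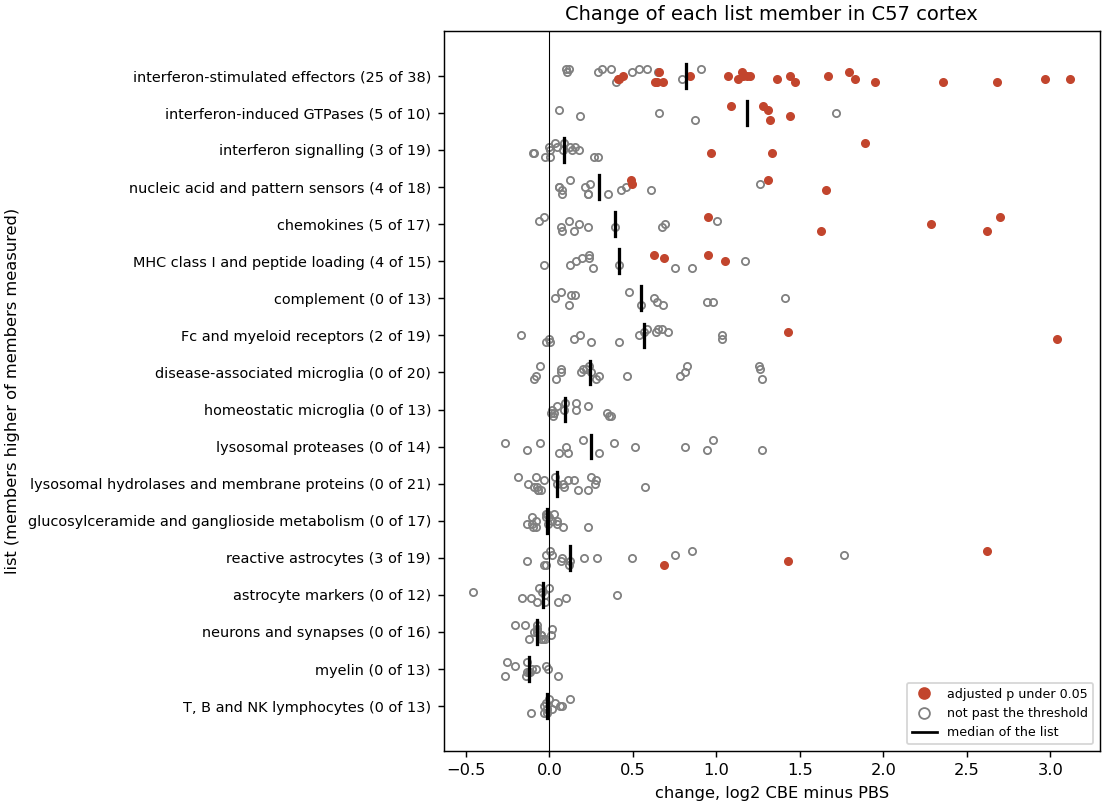
Log2 change, CBE minus PBS (x axis), of each measured member of 18 gene lists (y axis, with the members that rose of those measured); filled points passed adjusted p 0.05 and the bar is the list's median. Medians are highest for the interferon-induced GTPases (1.18) and interferon-stimulated effectors (0.82), and members of the complement, Fc receptor, disease-associated microglia and lysosomal protease lists reach over 1 without filled points in 3 of these 4.

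Few genes of myeloid receptors and complement passed the test with all 24 arrays. Of 19 measured Fc and myeloid receptor genes 2 rose (10.5%, against 0.316% of all genes), with a median change of 0.57. Without C3H CBE 1, 8 passed, and with only the 6 C57 arrays 5 did. Lilrb4a (17233226), an inhibitory receptor of myeloid cells, had the second largest rise of all genes: it read 4.44, 4.15 and 4.31 on the PBS arrays and 6.62, 7.50 and 7.90 on the CBE arrays (3.04 ± 0.60, 8.23-fold, adjusted p = 0.0217). Cd52 (17431174), a small surface glycoprotein of leukocytes, read 5.29, 5.28 and 5.09 against 6.38, 6.75 and 6.81, a rise of 1.43 ± 0.30 (adjusted p = 0.0322). Both calls were lost without any 1 C57 array but CBE 1 (adjusted p up to 0.186 and 0.213). Cybb (17540154), the membrane subunit through which phagocytes make superoxide, was the 1 of 5 measured oxidase genes that rose, from 4.06, 4.0 and 4.07 to 5.55, 5.94 and 6.64 (2.0 ± 0.36, adjusted p = 0.00969); without PBS 1, PBS 2 or CBE 3 the adjusted p reached 0.123. Without C3H CBE 1, and with only the 6 C57 arrays, 2 of the 5 passed.

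None of the 13 measured complement genes passed, although 9 of the 13 had all CBE arrays above all PBS arrays (5.82% of all genes did) and their median change was 0.55. C4b, a component that tags surfaces for uptake, read 4.67, 5.07 and 4.46 against 5.95, 6.22 and 6.28 (1.41 ± 0.35, adjusted p = 0.132). C1qb, a chain of the recognition molecule, read 8.79, 8.65 and 9.01 against 9.64, 9.84 and 9.79 (0.94 ± 0.22, adjusted p = 0.069). The groups were apart by 0.88 for C4b and 0.63 for C1qb. Without C3H CBE 1, 6 of the 13 passed, C4b with adjusted p = 0.0018 and C1qb with adjusted p = 0.0009, and with only the 6 C57 arrays 4 of the 13 did. The probe set named C4b may also read the near-identical gene beside it.

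Disease-associated microglia genes mark phagocytes around plaques and lipid debris. None of the 20 measured members passed with all arrays, 6 passed without C3H CBE 1 and 5 with only the 6 C57 arrays. Their median change was 0.24, and 11 of the 20 had all CBE arrays above all PBS arrays (5.82% of all genes did). Gpnmb, a membrane glycoprotein of lipid-laden macrophages and a known marker of Gaucher disease, read 4.10, 4.13 and 4.29 on the PBS arrays and 4.95, 5.58 and 5.76 on the CBE arrays, a change of 1.25 ± 0.52 (adjusted p = 0.739). Without C3H CBE 1 the change was the same by construction, its SE was 0.14 and its adjusted p was 1.7e-05; with only the 6 C57 arrays the adjusted p was 0.0219. Cd68, a lysosomal membrane protein of macrophages, read 7.06, 7.02 and 7.33 against 7.74, 8.02 and 8.01 (0.78 ± 0.31, adjusted p = 0.702); the adjusted p was 7.9e-05 without C3H CBE 1 and 0.0198 with the 6 C57 arrays alone. Cst7, a cysteine protease inhibitor, read 3.73, 3.62 and 3.77 against 4.51, 5.27 and 5.18 (1.28 ± 0.34), and Clec7a, a receptor of fungal glucans, 3.53, 3.65 and 3.78 against 4.39, 4.94 and 5.40 (1.26 ± 0.42), with adjusted p = 0.206 and 0.507 (0.00051 and 5.7e-05 without C3H CBE 1). The groups of these 4 genes did not overlap. Of the other members, Trem2 changed by 0.82 and Ctsz by 0.81, and neither passed with all arrays. Without C3H CBE 1 their adjusted p was 0.0063 and 0.0016. Changes were smaller for Apoe (-0.08 ± 0.08), Igf1 (0.04 ± 0.10), Lpl (0.20 ± 0.12) and Capg (-0.05 ± 0.08).

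Homeostatic microglia genes are known to be switched down as microglia become reactive. Here 0 of 13 passed in the fit of all arrays, without C3H CBE 1 and with the 6 C57 arrays alone. All 13 had a positive change, from 0.01 to 0.37, and the median change was 0.10. P2ry12, the purine receptor that guides microglial processes, read 8.49, 8.56 and 8.67 against 8.53, 8.66 and 8.63 (0.03 ± 0.12), and Tmem119 changed by 0.09 ± 0.09. Csf1r, the growth factor receptor of microglia, read 8.55, 8.58 and 8.80 against 8.91, 8.98 and 9.08 (0.34 ± 0.13, adjusted p = 0.65), and Aif1 changed by 0.37 ± 0.18. Markers of other leukocytes were dim. None of 13 measured lymphocyte genes had a PBS mean above the median of all values. Their mean log2 signal was 3.50 to 3.58 on the PBS arrays and 3.51 to 3.57 on the CBE arrays, and their median change was -0.01. The 11 measured monocyte and neutrophil genes averaged 3.70 to 3.71 and 3.64 to 3.78, with a median change of 0.00.

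Lysosomal proteases and hydrolases gave no call. Of 14 measured lysosomal proteases and their inhibitors none passed, and the median change was 0.25. Ctss, a microglial cathepsin, read 9.33, 9.42 and 9.76 on the PBS arrays and 10.31, 10.41 and 10.62 on the CBE arrays (0.94 ± 0.24, adjusted p = 0.143), and Ctsc, which activates serine proteases, 5.36, 5.60 and 5.89 against 6.27, 6.78 and 6.74 (0.98 ± 0.25, adjusted p = 0.17). Both groups were separate, and 5 of the 14 passed without C3H CBE 1, as 5 did with the 6 C57 arrays alone. The broadly expressed Ctsb changed by -0.06 ± 0.09 and Ctsd by 0.30 ± 0.17, neither past the test. Of 21 measured hydrolases and membrane proteins none passed, with a median change of 0.04; Grn, the progranulin gene, read 9.20, 9.14 and 9.22 against 9.54, 9.89 and 9.84 (0.57 ± 0.21, adjusted p = 0.63; 0.0136 without C3H CBE 1). Tfeb, the factor that drives lysosomal genes, changed by -0.05 ± 0.09, and Lamp1 by 0.03 ± 0.07.

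Genes of the blocked pathway itself did not pass. Of 17 measured genes of glucosylceramide and ganglioside metabolism none changed, and the median was -0.02. Gba2, the non-lysosomal enzyme that also cleaves glucosylceramide, read 8.75, 8.82 and 8.69 on the PBS arrays and 8.63, 8.63 and 8.59 on the CBE arrays (-0.14 ± 0.07, adjusted p = 0.917). Ugcg, which makes glucosylceramide, read 8.94, 8.85 and 8.87 against 8.82, 8.71 and 8.83 (-0.10 ± 0.10). The CBE arrays of both lay below the PBS arrays by little, an order that 7.22% of all genes had. Psap, which encodes the activator peptides of lysosomal sphingolipid enzymes, changed by -0.02 ± 0.06. Of 18 measured genes of cholesterol synthesis and export none passed (median -0.07), and neither did any of 10 autophagy genes (median -0.03).

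Among astrocyte genes Gfap rose, and the general markers did not pass. Gfap (17270354), the intermediate filament of reactive astrocytes, read 6.56, 6.85 and 6.67 on the PBS arrays and 7.95, 8.13 and 8.30 on the CBE arrays, a rise of 1.43 ± 0.27 (adjusted p = 0.0141); the groups were apart by 1.09, and the call was lost without PBS 1, PBS 3, CBE 2 or CBE 3 (adjusted p up to 0.122). Of 19 measured genes of reactive astrocytes 3 rose (15.8%, against 0.316% of all genes), Gfap and, from other lists, Cxcl10 and Psmb8. The median change was 0.13. The count was 1 without PBS 1, PBS 3, CBE 2 or CBE 3, and 5 without C3H CBE 1 or with only the 6 C57 arrays. Serpina3n, a secreted protease inhibitor, read 6.44, 6.55 and 6.83 against 7.82, 8.63 and 8.65 (1.76 ± 0.50, adjusted p = 0.27; 1.4e-06 without C3H CBE 1). Osmr, the oncostatin M receptor, read 5.30, 5.47 and 5.53 against 6.12, 6.34 and 6.39 (0.85 ± 0.27, adjusted p = 0.43; 0.0171 without that array). None of 12 general astrocyte markers passed (median -0.04): Aqp4 changed by 0.41 ± 0.18, Slc1a3 by 0.00 ± 0.07 and Fgfr3, at 7.14, 7.15 and 7.50 against 6.67, 6.86 and 6.90, by -0.45 ± 0.10 (adjusted p = 0.069).

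Pathways of cell death and stress gave 1 call. Zbp1 (17395079), a sensor of Z-form nucleic acids that can trigger necroptosis and is itself induced by interferon, read 3.77, 4.16 and 3.89 on the PBS arrays and 4.77, 4.99 and 5.62 on the CBE arrays, a rise of 1.19 ± 0.23 (adjusted p = 0.0209), lost without PBS 1, PBS 3, CBE 2 or CBE 3 (adjusted p up to 0.213). It was the 1 of 12 measured necroptosis and death receptor genes that rose; the executors Ripk3 and Mlkl changed by 0.15 ± 0.09 and 0.11 ± 0.09. Bcl2l11, which promotes apoptosis, read 3.65, 3.87 and 4.12 against 4.46, 4.41 and 4.22 (0.48 ± 0.11, adjusted p = 0.063; 0.0445 without C3H CBE 1). None of 14 genes of the unfolded protein and integrated stress response, 13 of oxidative stress or 11 chaperone genes passed, with medians of -0.02, 0.00 and -0.08.

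No neuronal gene on the lists passed the test. Of 16 genes of neurons and synapses none passed, the changes ran from -0.21 (Nefh) to 0.02 (Map2), and the median was -0.07. Snap25, a vesicle fusion protein, read 13.32, 13.41 and 13.30 on the PBS arrays and 13.42, 13.34 and 13.19 on the CBE arrays. None of 12 interneuron genes, 12 layer markers or 17 glutamate and GABA receptor genes passed either, with medians of -0.02, -0.06 and -0.04. Gad2, an enzyme that makes GABA, read 9.82, 9.83 and 9.79 against 9.65, 9.59 and 9.64 (-0.19 ± 0.07, adjusted p = 0.724).

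Both falls were single genes of no list. Cbln2 (17352265), a secreted organiser of synapses, read 8.89, 8.95 and 9.14 on the PBS arrays and 8.78, 8.47 and 8.41 on the CBE arrays, a fall of 0.44 ± 0.09 on the log2 scale (adjusted p = 0.0332). Nup133 (17514004), a scaffold protein of the nuclear pore, read 8.00, 7.97 and 7.94 against 7.65, 7.51 and 7.43, also with a change of -0.44 ± 0.09 (adjusted p = 0.0278). The groups were apart by 0.10 for Cbln2 and 0.29 for Nup133. Both calls were lost without any 1 C57 array but CBE 1, with adjusted p up to 0.313 and 0.219.

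Vessel-wall genes gave 1 rise among 13 measured genes of pericytes, smooth muscle and meninges, whose median change was -0.14. Acta2 (17364098), smooth muscle actin, read 6.52, 6.31 and 6.02 on the PBS arrays and 7.30, 6.92 and 7.21 on the CBE arrays, a rise of 0.86 ± 0.18 (adjusted p = 0.0322), lost without PBS 2, PBS 3, CBE 1 or CBE 3 (adjusted p up to 0.23). Myh11, smooth muscle myosin, read 4.38, 4.36 and 4.48 against 4.92, 4.92 and 4.95 (0.52 ± 0.12, adjusted p = 0.0762; 0.0309 without C3H CBE 1). Ptgds, a prostaglandin synthase abundant in the meninges, ran from 10.47 to 10.78 on PBS arrays and read 10.65, 9.72 and 8.90 on CBE arrays (-0.92 ± 0.38, adjusted p = 0.734). None of 14 endothelial genes passed, although all 14 had a positive change (median 0.15).

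Levels of tissue and activity markers varied between mice of the same group. The myelin list averaged 8.95, 8.74 and 8.15 on the PBS arrays and 8.60, 8.97 and 7.92 on the CBE arrays, so replicate 3 was the lowest in both groups, and 0 of its 13 measured members passed. The immediate-early genes, switched on by neuronal activity, averaged 7.60, 7.60 and 6.98 against 7.23, 7.26 and 7.35, and 0 of 20 passed. Means of 12 cortical layer markers spanned 7.87 to 8.38 over the 6 arrays, all 12 above the median of all values in PBS. The 11 thalamic markers averaged 6.00 to 6.12 and the 7 striatal markers 5.49 to 5.80, with 0 past the test in either list. The choroid plexus marker Ttr ran from 4.62 to 7.63 on the PBS arrays and from 5.05 to 7.10 on the CBE arrays. The source of these differences was not tested, and their part in the calls was not tested beyond leaving arrays out.

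**Figure D4:**
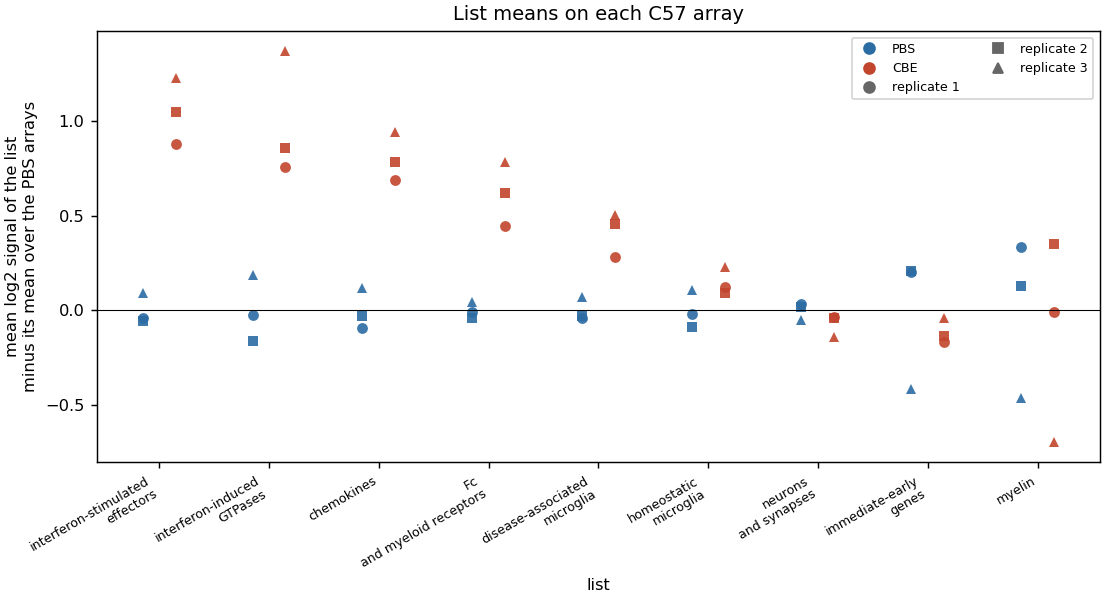
Mean log2 signal of 9 lists on each C57 array (y axis, minus the list's mean over the 3 PBS arrays; x axis, list), with colours for the agent and symbols for the replicate number. The 3 CBE arrays lie above the 3 PBS arrays for the first 5 lists, and the replicate 3 arrays are the lowest of their group for myelin (8.15 among PBS, 7.92 among CBE).

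The same arrays stood out within the response. Averaged over the 70 risen genes, the PBS arrays read 4.89, 4.88 and 5.07 and the CBE arrays 6.00, 6.21 and 6.47. PBS 3 was the highest PBS array for 45 of the 70, CBE 3 the highest CBE array for 55, and CBE 1 the lowest CBE array for 51. The CBE arrays also spread more: the median SD of the risen genes was 0.13 among PBS and 0.28 among CBE arrays, against 0.092 and 0.094 over all genes, and the CBE SD was the larger for 50 of the 70, against 51.3% of all genes. With PBS 3 and CBE 3 both left out, a choice made after the list means were seen, 28 genes were called, 27 up and 1 down, and 26 of them were among the 72.

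Leaving out single arrays moved the number of calls. Without CBE 3 it was 30, without PBS 1 37, without PBS 2 40, without CBE 2 44, without PBS 3 51 and without CBE 1 74. Leaving out 1 of the other 18 arrays gave 69 to 81 calls, except C3H CBE 1, without which 136 genes were called, 133 up and 3 down, including all 72. The 64 genes called only without that array were led, by p, by Serpina3n, C3ar1, Gpnmb, Cd84, Clec7a and Cd68. Of the 70 rises, 26 kept their call without any 1 of the 24 arrays, with adjusted p no higher than 0.0397. They were Rsad2, Cxcl10, Rnf213, Ifit1, Isg15, Ccl5, Usp18, Oasl2, Ccl12, Oas1g, Tor3a, Parp14, Ifi30, Ifih1, Stat2, Rtp4, Bst2, Ddx58, Irgm2, Irf7, Irf9, Lgals9, Igtp, Cxcl16, Lgals3bp and 1 predicted gene. The other 44 lost it without at least 1 C57 array. The smallest p that an exact permutation test allows with 3 mice against 3 is 0.1.

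**Figure D5:**
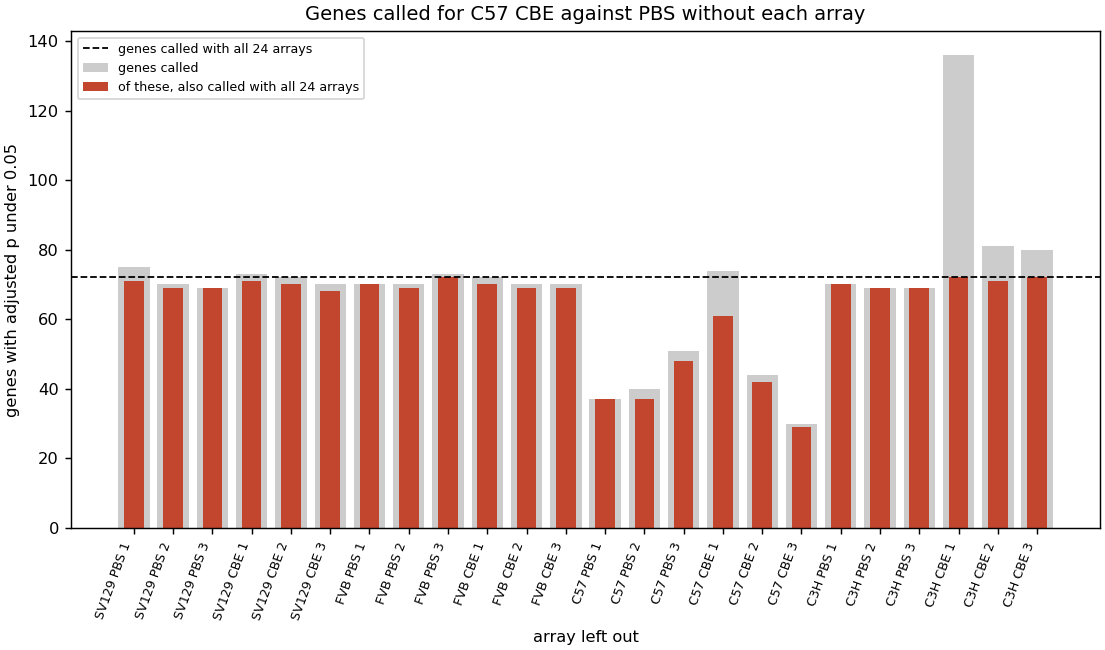
Number of genes with adjusted p under 0.05 for C57 CBE against PBS (y axis) when each of the 24 arrays is left out in turn (x axis); the red part was also called with all arrays, and the dashed line marks the 72 genes called with all 24. Leaving out a C57 array gives 30 to 74 calls, and leaving out C3H CBE 1 gives 136.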

How the data were processed

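Cortex RNA (100 ng total) was labelled with the GeneChip WT PLUS kit for Affymetrix arrays, per the labels' protocols. The authors deposited 1 log2 value per probe set and array, made with Partek and RMA per the submitters' processing notes; no source used here gives versions, order of steps or genome build, and the log base was inferred from the range (2.43 to 14.09). Of 41034 probe sets, 23521 had 1 gene symbol in the platform annotation; the probe set of highest mean was kept for the 1082 genes with several, leaving 22180 genes, with no filter on dim signal. limma 3.58.1 (R 4.3.3) fitted 1 mean for each of the 8 groups of 24 arrays (16 residual degrees of freedom, prior 5.10); the contrast was two-sided and Benjamini-Hochberg adjustment ran over all genes at 0.05. The procedure was tested on simulated data. The number of arrays limits the precision; the median SE was 0.10.

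Named were the 20 largest rises and all falls past the threshold with groups that did not overlap, up to 4 members per list past it or else the 2 of smallest p, and Gba2, Ugcg, Gfap, Cd68 and Gpnmb; other genes were chosen after their values were seen. The genes and lists were chosen with earlier results of these data known. The lists of mitochondrially encoded and erythroid genes had 0 measured members, and some genes are not analysed here. Alternatives changed the samples, prior, normalization, filter, probe set rule, weights and replicate block.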

Additional observations from a re-analysis of the deposited data

Results flagged for a closer look

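A signal appeared in probe sets that the comparison of named genes does not use. Of 17513 probe sets with no gene symbol or with several, 9 passed adjusted p 0.05 in a fit of all 41034 probe sets, 8 of them higher with CBE and 1 lower; 6 had no symbol and 3 had several. The largest rise was probe set 17411147, which has no symbol and read 6.27, 6.60 and 7.33 on the PBS arrays and 9.03, 9.31 and 9.47 on the CBE arrays (2.54 ± 0.32). Probe set 17403268, with several symbols, rose by 1.83 ± 0.19, and probe set 17221653, with no symbol, fell from 4.69, 4.29 and 4.61 to 3.88, 4.06 and 3.82 (-0.61 ± 0.12, adjusted p = 0.0475). What these probe sets measure was not tested.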

How the results depend on the processing

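The 72 changed genes (70 higher, 2 lower) became 36 (36 higher, 0 lower) with an ordinary linear model, 45 (45 higher, 0 lower) when the correction ran over all 41034 probe sets, 112 (7 lower) with array weights and 28 (27 higher, 1 lower) without C57 PBS 3 and CBE 3, an alternative chosen after seeing the data. Leaving out single arrays gave 30 to 136 changed genes, 30 to 133 higher and 0 to 4 lower. With only the 6 C57 arrays 101 genes changed, 97 higher and 4 lower, and 53 of them were among the 72. No fall reached 1.5-fold, so 0 genes were lower under that rule. A trended robust prior, quantile normalization, median centring, a filter on dim probe sets and the most variable probe set per gene gave 60 to 75 changed genes. Directions reversed for 3 named genes, none past the test: Gabarap (-0.037 with the most variable probe set), Myrf (-0.33 to 0.053 as single arrays were left out, 0.053 without C57 PBS 1) and Mag (-0.49 to 0.040, 0.040 without C57 CBE 3). The replicate numbers were not taken as pairs: deviations of same-numbered arrays correlated from -0.19 to 0.20 over 12 pairs, with 3 over 0.1, and by 0.068, 0.080 and 0.20 for the C57 pairs. With the replicate number as a block, 62 genes changed (60 higher, 2 lower), 56 of them among the 72, and the MHC class I list held 0 calls against 4. Array signal carries no depth, so dim genes limit the precision.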

Other observations

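Of the 70 rises, 18 stood on none of the 46 lists, 2 of them predicted genes that are not named; the genes below were chosen after their values were seen. Several belong to families that interferon is known to induce. Ifi204 (probe set 17230045), of the Ifi200 family of DNA-binding proteins, read 4.64, 4.75 and 5.08 on the PBS arrays and 5.96, 6.27 and 6.99 on the CBE arrays (1.59 ± 0.30, adjusted p = 0.0181). Its relatives Ifi209 and Ifi205 rose by 1.14 ± 0.19 and 1.01 ± 0.17, and the probe sets of this family may share signal. Phf11b rose by 1.33 ± 0.28 (adjusted p = 0.0322), Trim12a by 0.80 ± 0.16 and Trim30d by 0.61 ± 0.13, the last with groups only 0.06 apart. Tor3a, an ATPase of the torsin family, read 4.57, 4.62 and 4.77 against 5.22, 5.43 and 5.55 (0.75 ± 0.09, adjusted p = 9.7e-05), and Lgals9, a sugar-binding galectin, 6.86, 7.10 and 6.97 against 7.87, 8.39 and 8.21 (1.18 ± 0.18, adjusted p = 0.0022). Tor3a and Lgals9 kept their calls without any 1 of the 24 arrays; the calls of Ifi204, Ifi209, Ifi205, Phf11b, Trim12a and Trim30d were lost without CBE 3 (adjusted p up to 0.313 without 1 C57 array).

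Other rises outside the lists had varied known roles. Ly86 (17286587), which partners a Toll-like receptor relative on myeloid cells, was the brightest in PBS mice of these 18: it read 7.89, 7.98 and 8.25 against 9.27, 9.44 and 9.65 (1.41 ± 0.29, adjusted p = 0.0294). Slc11a1, a metal transporter of phagosomes, rose by 0.80 ± 0.16, Gpr84, a receptor of medium-chain fatty acids, by 1.00 ± 0.17, and Pik3ap1, an adaptor of phosphoinositide 3-kinase, by 1.00 ± 0.21. Cd274, the checkpoint ligand PD-L1, read 4.20, 4.12 and 4.02 against 4.55, 4.72 and 5.14 (0.69 ± 0.14, adjusted p = 0.0294). Capn3, a calpain protease, Spint1, a protease inhibitor, and Neurl3, a ubiquitin ligase, rose by 0.65 ± 0.11, 0.49 ± 0.09 and 0.56 ± 0.12. Each of these 8 calls was lost without 2 or more of the C57 arrays taken singly. On the RefSeq gene order of GRCm38.p6, 12 of the 70 risen genes lay directly beside another, in 6 pairs: Igtp and Irgm2, Rsad2 and Cmpk2, Tap1 and Psmb8, Gbp7 and Gbp3, Oasl2 and Oasl1, and Eif2ak2 with a predicted gene.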
